A study of Rattus norvegicus with 13 samples.

Results

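The genes described here encode the parts of cell-cell junctions: claudins, occludin, junctional adhesion molecules and zonula occludens scaffolds of tight junctions, cadherins and catenins of adherens junctions, the proteins of desmosomes, the connexins of gap junctions, and the adhesion molecule *Epcam*. They were taken by symbol from the table of 14790 rat genes, without the endothelial cadherin *Cdh5*, which gave 61 entries with 60 symbols. *Ctnna3* is the symbol listed under 2 gene identifiers, ENSRNOG00000000373 and ENSRNOG00000000378, and each was kept. RNA-seq was done on mammary epithelial cells of Wistar-Furth rats, 6 of them 6 weeks old and thus inside the window of susceptibility to carcinogens (WOS), and 7 of them 10 weeks old, outside WOS. Each rat gave 1 library, and no treatment or allele distinguishes the ages in the labels. The cells came from abdominal and inguinal glands digested with collagenase and filtered to enrich fragments of ducts, a preparation that the study describes as mainly epithelial but also holding fibroblasts and immune cells. The question the comparison addresses is how gene expression differs between the ages at which the gland is and is no longer highly susceptible.

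Tight junctions seal the space between epithelial cells and set which ions pass, with claudins as the strands and zonula occludens proteins as the scaffold beneath them. Adherens junctions hold cells together through cadherins, which bind the actin skeleton through catenins, and desmosomes anchor keratin filaments through desmosomal cadherins, plakoglobin, plakophilins and desmoplakin. Gap junctions are channels of connexins that let small molecules pass from cell to cell. In the mammary duct the inner luminal cells carry E-cadherin (*Cdh1*) and the outer basal, or myoepithelial, cells carry P-cadherin (*Cdh3*).

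Values are the authors' RSEM estimated counts after scaling of each library and rounding, called normalized counts here, and lengths of genes are not part of them, so levels are compared between rats and not between genes. The totals ran from 13261906 to 15659533 per rat, and the junction and cadherin genes held 0.551% to 0.841% of the total within WOS and 0.727% to 0.887% outside WOS. Rat 86, at 6 weeks, had the lowest of these shares and also the largest share of its total in a single gene, 27.9%. The rats were cut into sets at the largest gap on the first principal component of the variation within ages, which held 28.3% of it. That gap was 27.3 and the next 18, and such a cut is made whether or not groups exist. The smaller set held 5 rats (rats 75 and 80 within WOS, rats 78, 81 and 83 outside) and the larger set 8, a split which no label explains. Luminal markers summed to between 19261 and 37068 normalized counts within WOS and between 25444 and 35073 outside, and basal markers to between 26328 and 40877 and between 36391 and 47460, so markers of both epithelial layers were measured at both ages. The 9 fibroblast markers measured, led by the collagens, summed to between 119224 and 241877 within WOS and between 24352 and 63291 outside. All 6 younger rats lay above all 7 older ones. Of the 9 markers 5 were higher within WOS in limma, beside 8.71% of all genes. In limma 0 of the 9 endothelial markers had an adjusted p under 0.05 and 1 an unadjusted one, beside 16.1% and 31.6% of all genes. The endothelial markers summed to between 10921 and 18834 within WOS and between 11265 and 16852 outside. In such mixed samples fewer cells of a type and less RNA per cell cannot be told apart.

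Within WOS the basal cadherin *Cdh3*, the connexin *Gjb5*, the junctional adhesion molecule *Jam3* and desmoplakin (*Dsp*) were higher. Outside WOS the luminal cadherin *Cdh1* and the connexin *Gjb2* were higher, and so was *Epcam*, whose adjusted p was above 0.05 in each of the 13 fits that left out 1 rat. Most claudins, occludin, the desmosomal cadherins and the catenins had no adjusted p under 0.05. Differential expression (DE) means an adjusted p under 0.05 in limma on log2(normalized count + 1), adjusted over all 14790 genes, and a log2 fold change above 0 is higher within WOS. Changes of genes at low counts are understated by this scale.

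Of the 61 entries, 17 were DE (27.9%), beside 16.1% of all genes tested. The 17 divided into 12 with more expression within WOS and 5 with more outside WOS, where 8.71% and 7.39% of all genes were DE in these directions. The median log2 fold change of the 61 was 0.11, beside 0.028 over all genes, with 35 values above 0 and 26 below. For 6 entries the ages did not overlap, among them *Cdh3*, *Cdh11*, *Gjb5* and *Jam3* with every rat within WOS above and *Gjb2* with every rat within WOS below, and 6.07% of all genes had no overlap (3.29% and 2.78% in these directions). Among the 39 entries with a mean of at least 100 normalized counts 12 were DE (30.8%, beside 17.7% of all genes at that level), and 5 of the other 22 were DE (22.7%, beside 13.7% of all genes at that level). By role, DE genes made up 6 of 10 connexins, 5 of 11 cadherins, 2 of 16 claudins, 1 of 3 junctional adhesion molecules, 1 of 6 desmosomal plaque genes and *Epcam*, and 0 of 6 catenins, 0 of 4 desmosomal cadherins and 0 of 1 occludin. At an unadjusted p under 0.05 there were 1 catenin, 1 desmosomal cadherin and 0 occludin, beside 31.6% of all genes. All 17 DE entries kept their sign in each of the 13 fits that left out 1 rat, where 9.54% to 18.1% of all genes were DE, and 8 stayed DE in all 13 (among them *Cdh1*, *Cdh3*, *Gjb2*, *Gjb5* and *Jam3*). The counts by direction varied, as did the shares of all genes. Leaving out rat 71 gave 7 entries higher within WOS, beside 6.64% of all genes. Leaving out any of rats 70, 72, 74, 83, 84, 85, 86 or 87 gave 3 higher outside WOS, beside 4.11% (without rat 70) to 7.5% (without rat 86) of all genes.

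**Figure D1:**
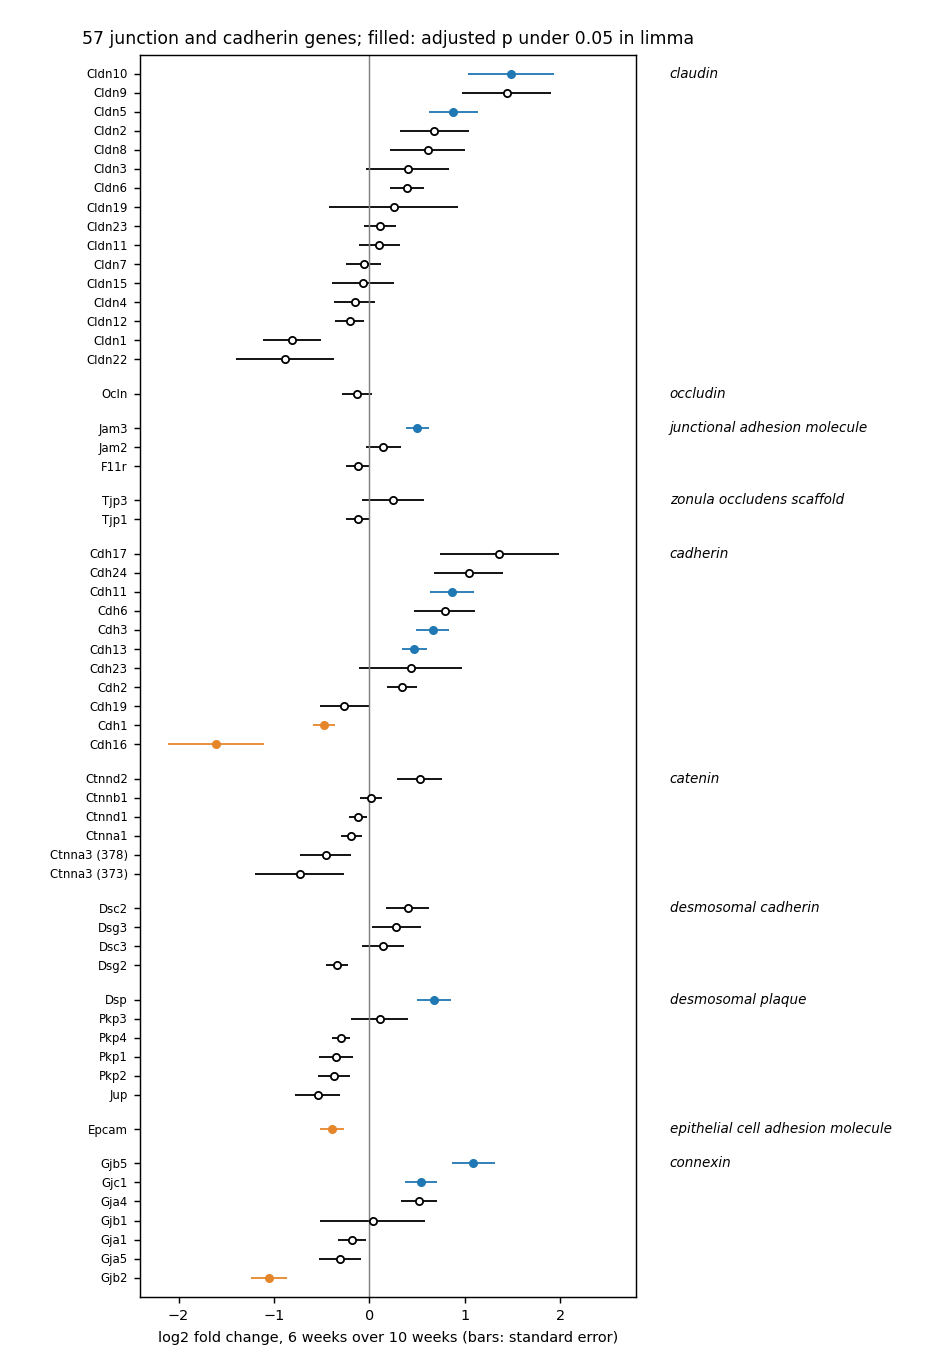
Log2 fold change of 57 of the 61 entries, 6 weeks over 10 weeks, grouped by role, with bars for the standard error; filled points mark an adjusted p under 0.05, blue for higher at 6 weeks and orange for higher at 10 weeks. Filled points number 5 of 11 among the cadherins and 3 of 7 among the connexins shown, and the catenins and desmosomal cadherins have none. The numbers in brackets after Ctnna3 are the last digits of its 2 identifiers.

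In the plot of log2 fold changes by role, *Gjb2* at -1.05 and *Gjb5* at 1.09 lay on opposite sides of 0, and DE cadherins ran from -1.60 for *Cdh16* to 0.87 for *Cdh11*. Promoter sequence from RefSeq (GRCr8) was matched for 39 of the 60 symbols, and for 5 of the 17 DE entries (*Cldn5*, *Cldn10*, *Dsp*, *Epcam* and *Gjb2*). The 250 bases before the start of *Gjb2* and *Epcam*, both higher outside WOS, and of *Dsp*, higher within WOS, are shown as examples. Capitals mark the GC box (GGGCGG on either strand) and CACCTG, the E-box that Snail and Zeb repressors of *Cdh1* are known to bind, likewise on either strand. The windows lie on the minus strand, at chr15:35381954-35382203 for *Gjb2*, at chr6:12649679-12649928 for *Epcam* and at chr17:26877122-26877371 for *Dsp*.
Gjb2: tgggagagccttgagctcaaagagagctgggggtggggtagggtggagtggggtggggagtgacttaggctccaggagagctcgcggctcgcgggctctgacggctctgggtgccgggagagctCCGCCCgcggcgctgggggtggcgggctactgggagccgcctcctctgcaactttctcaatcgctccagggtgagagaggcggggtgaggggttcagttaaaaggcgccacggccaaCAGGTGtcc
Epcam: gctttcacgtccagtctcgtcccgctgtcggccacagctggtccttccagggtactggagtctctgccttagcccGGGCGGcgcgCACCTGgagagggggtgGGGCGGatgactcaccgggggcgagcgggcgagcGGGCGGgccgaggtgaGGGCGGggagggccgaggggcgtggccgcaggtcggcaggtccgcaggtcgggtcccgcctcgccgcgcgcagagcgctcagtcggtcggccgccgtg
Dsp: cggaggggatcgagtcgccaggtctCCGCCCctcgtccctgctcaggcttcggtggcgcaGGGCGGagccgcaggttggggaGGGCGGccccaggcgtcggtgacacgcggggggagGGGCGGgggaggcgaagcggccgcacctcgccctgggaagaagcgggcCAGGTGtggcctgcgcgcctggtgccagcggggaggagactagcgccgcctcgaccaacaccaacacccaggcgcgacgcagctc
The *Gjb2* window holds 1 GC box and 1 E-box, and the *Epcam* and *Dsp* windows each hold 4 GC boxes and 1 E-box, with no overlap between matches (CCGCCC and CAGGTG are the same motifs read on the other strand). The *Gjb2* window lies inside the full annotated span of that gene. The windows of *Cldn5* and *Cldn10*, both higher within WOS and not shown, hold 0 E-boxes each. *Cldn5* has 1 GC box there and *Cldn10* has 0. CACCTG occurred in 12 of the 39 matched promoters (30.8%) and in 15.6% of all 27457 promoters of the same length, and GGGCGG in 25 of 39 (64.1%) and in 32.4%. The Grainyhead-like site AACNGGTT was found in 1 of 39 (2.56%), that of *Tjp1*, and in 1.65% of all. The median GC content of the 39 windows was 61.2%, against 52.0% over all promoters, and its part in these shares was not tested. These are matches of letters, and binding was not measured.

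*Gjb2* (ENSRNOG00000008855), a connexin of luminal cells, ranged from 1063 to 1867 normalized counts in the younger rats (median 1601.5) and from 2298 to 5274 in the older (median 3157). The ages did not overlap, and rat 81 was far above the other older rats, which lay between 2298 and 3393. Its log2 fold change was -1.05 ± 0.19 (SE, n = 6 and 7 rats; limma adjusted p = 0.00293), or 2.07-fold higher outside WOS. Its values were -0.80 among the larger set of rats and -1.49 among the smaller. *Gja1*, the connexin mainly of myoepithelial cells, lay between 1896 and 3270 within WOS and between 2319 and 3559 outside, with a log2 fold change of -0.18 ± 0.14 that was not DE (limma adjusted p = 0.405).

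Because a ratio of genes in 1 library does not depend on the scaling of that library, *Gjb2* was also set against *Gja1*. The log2 ratio averaged -0.65 ± 0.49 (SD, n = 6) in the younger rats and 0.22 ± 0.42 (SD, n = 7) in the older rats. That difference of -0.87 had p = 0.00583 in a two-sided exact permutation test over the 13 rats, and 0.00583 after adjustment over 2 ratios. Only 3 of the 6 rats within WOS lay below every older rat. Within the larger set of rats the difference was -0.46 (exact permutation p = 0.114).

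*Gjb5* (ENSRNOG00000059897), a connexin best known from skin, ran at low counts from 21 to 43 in the younger rats (median 29.5) and from 8 to 19 in the older (median 14). The ages did not overlap, with rat 86 the lowest of the younger rats and rat 83 the highest of the older. Its log2 fold change was 1.09 ± 0.22 (limma adjusted p = 0.00639), DE in all 13 fits that left out 1 rat, with values of 1.14 among the larger set of rats and 1.02 among the smaller. *Gja4*, an arterial connexin, ran from 204 to 352 and from 138 to 297, and its log2 fold change of 0.52 ± 0.19 was not DE with all rats (limma adjusted p = 0.0806) but was without rat 83 (0.0409) or rat 86 (0.0443).

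*Gjc1*, a connexin of smooth muscle and heart, was higher within WOS. It ran from 219 to 416 normalized counts in the younger rats (median 326.5) and from 185 to 261 in the older (median 197), so rats 70 and 84 within WOS fell inside the older range. Its log2 fold change of 0.54 ± 0.16 (limma adjusted p = 0.0414) fell short among the larger set of rats (0.26; limma adjusted p = 0.329), and the gene stayed DE in 4 of the 13 fits that left out 1 rat, those without rat 70, 72, 84 or 85 (highest limma adjusted p 0.076, without rat 74). *Gja5*, a connexin of vessels and the conduction system of the heart, and *Gjb1*, a connexin of liver and myelinating cells, were not DE, at log2 fold changes of -0.31 and 0.03. *Gjb1* ranged from 7 to 97 outside WOS, with rats 78 and 81 at 54 and 97 and the other older rats at 16 or less.

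**Figure D2:**
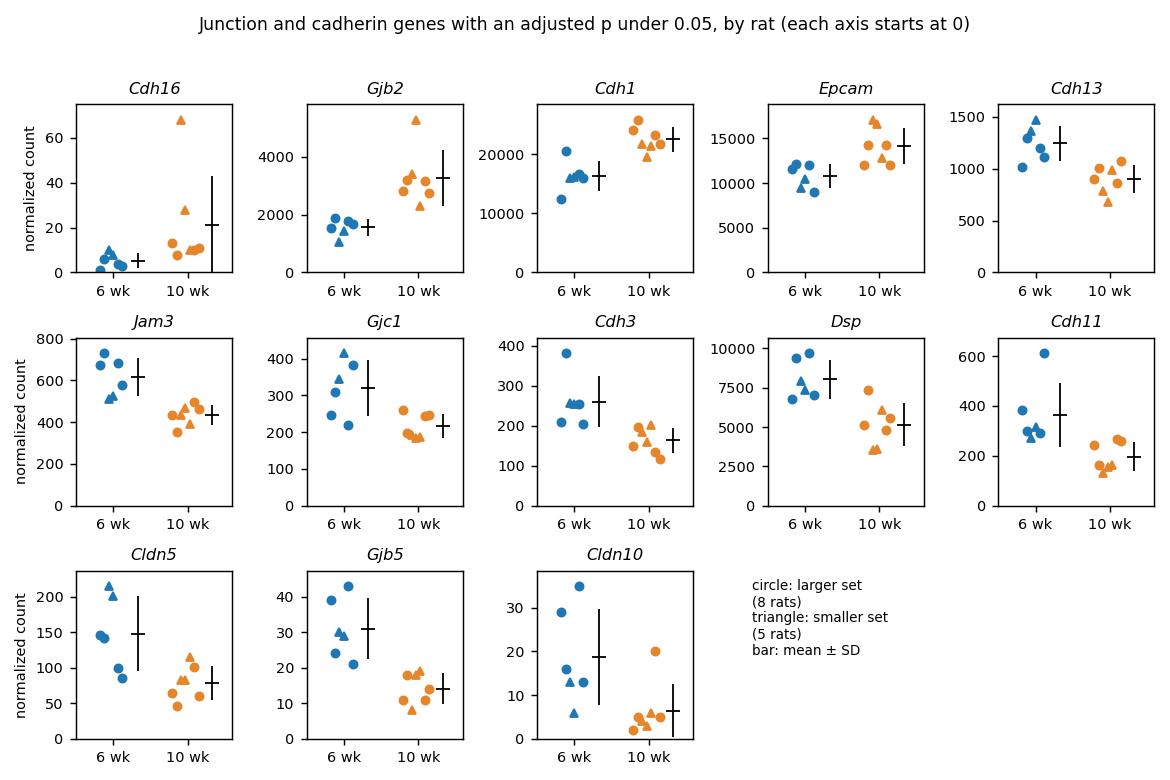
Normalized counts of 13 of the 17 DE entries in each rat, with each vertical axis starting at 0; blue is 6 weeks and orange 10 weeks, circles are the larger set of rats, triangles the smaller set, and bars give the mean ± SD. Gjb2, Cdh3, Cdh11, Gjb5 and Jam3 show no overlap between the ages, and rat 81 stands at 5274 for Gjb2 and rat 78 at 68 for Cdh16.

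*Cdh1* and *Cdh3* are immediate neighbours in the RefSeq order and moved in opposite directions. *Cdh1* (ENSRNOG00000020151), E-cadherin, ranged from 12484 to 20526 normalized counts in the younger rats (median 16100.5) and from 19558 to 25808 in the older (median 21727). Rat 71 alone of the younger rats reached the older range, and the log2 fold change was -0.47 ± 0.12 (limma adjusted p = 0.0165), or 1.39-fold higher outside WOS. *Cdh3* (ENSRNOG00000020129), P-cadherin, ranged from 205 to 382 in the younger rats (median 254) and from 117 to 202 in the older (median 160). The ages did not overlap, rat 71 stood highest at 382, and the log2 fold change was 0.66 ± 0.17 (limma adjusted p = 0.0213). Both were DE in each of the 13 fits that left out 1 rat, and both were DE in the larger set of rats.

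Set against each other in the same library, *Cdh1* over *Cdh3* gave log2 ratios of 5.98 ± 0.18 (SD, n = 6) in the younger rats and 7.12 ± 0.31 (SD, n = 7) in the older rats. All 6 younger rats, from 5.74 to 6.28, lay below all 7 older ones, from 6.71 to 7.52. Their difference of -1.14 had p = 0.00117 in a two-sided exact permutation test, 0.00233 after adjustment over 2 ratios, where the smallest p that 1716 arrangements allow is 0.000583. The ratio differed by -1.34 within the larger set of rats (exact permutation p = 0.0286, adjusted 0.0571) and by -0.86 within the smaller set, where 2 rats against 3 cannot reach the threshold (exact permutation p = 0.2). Of 15 luminal markers 1 was higher within WOS and 1 outside, and of 11 basal markers 0 were higher within WOS and 1 outside. Of all genes 8.71% were higher within WOS and 7.39% outside. The part of cell numbers in the *Cdh1* and *Cdh3* values was not tested.

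**Figure D3:**
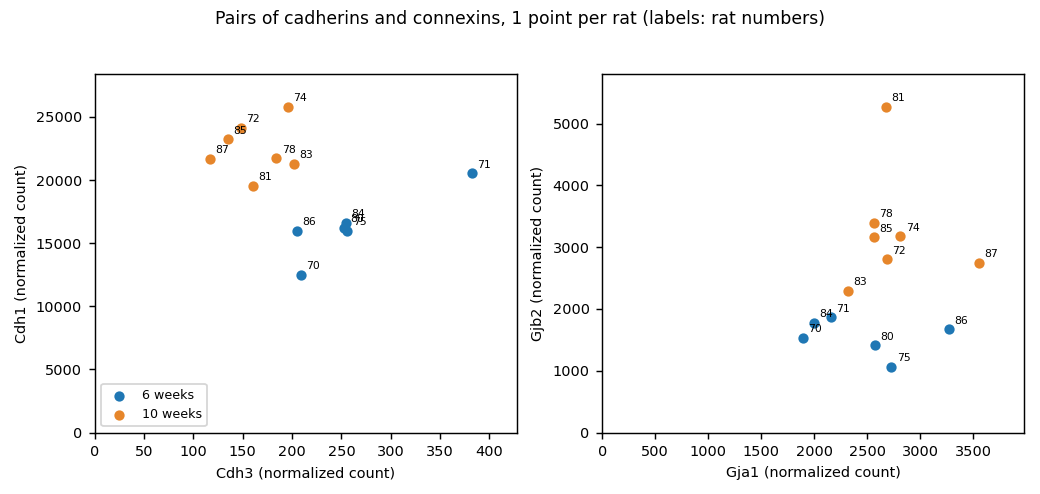
Normalized counts of 2 pairs of genes with 1 point per rat (blue 6 weeks, orange 10 weeks, labels are rat numbers): Cdh1 against Cdh3 and Gjb2 against Gja1. In the first pair the ages fall in separate areas, with log2 ratios of 5.74 to 6.28 at 6 weeks and 6.71 to 7.52 at 10 weeks, and in the second pair the ages overlap along Gja1 but not along Gjb2.

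*Cdh11*, a cadherin of mesenchymal cells, and *Cdh13*, a cadherin held in the membrane by a lipid anchor and found on vessels and myoepithelial cells, were higher within WOS. *Cdh11* (ENSRNOG00000013481) lay between 272 and 613 normalized counts within WOS (median 308) and between 130 and 267 outside (median 163). No younger rat fell into the older range, though rat 75 at 272 stood just above rat 85 at 267, and rat 86 was the highest. Its log2 fold change of 0.87 ± 0.23 (limma adjusted p = 0.0231) was no longer DE without rat 70 (0.054). *Cdh13* (ENSRNOG00000014371) ran from 1017 to 1473 (median 1249.5) and from 683 to 1072 (median 902). Rat 70 alone of the younger rats lay inside the older range, and the log2 fold change was 0.47 ± 0.13 (limma adjusted p = 0.0279), DE in 7 of the 13 fits that left out 1 rat and lost without rat 71, 72, 75, 78, 80 or 84 (at most 0.0561). In the larger set of rats neither was DE, with log2 fold changes of 0.72 for *Cdh11* (limma adjusted p = 0.0822) and 0.26 for *Cdh13* (0.146).

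Beside these cadherins, the summed fibroblast markers, led by the collagens, were also higher within WOS, as given above. Of the 9 markers 8 had a log2 fold change above 0, and the median was 1.09. DE and higher within WOS were 5 of the 9, beside 8.71% of all genes. *Pdgfra* (0.13) and *Fbln1* (-0.24) had the lowest log2 fold changes of the 9 and were not DE. The rats with the highest summed fibroblast markers were rats 80 (241877) and 75 (237115), where *Cdh11* stood at 317 and 272 normalized counts, while rat 86 with the highest *Cdh11*, 613, had a sum of 194286. *Cdh13* was highest in rats 80 and 75, at 1473 and 1362. The part of fibroblasts in the values of *Cdh11* and *Cdh13* was not tested.

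**Figure D4:**
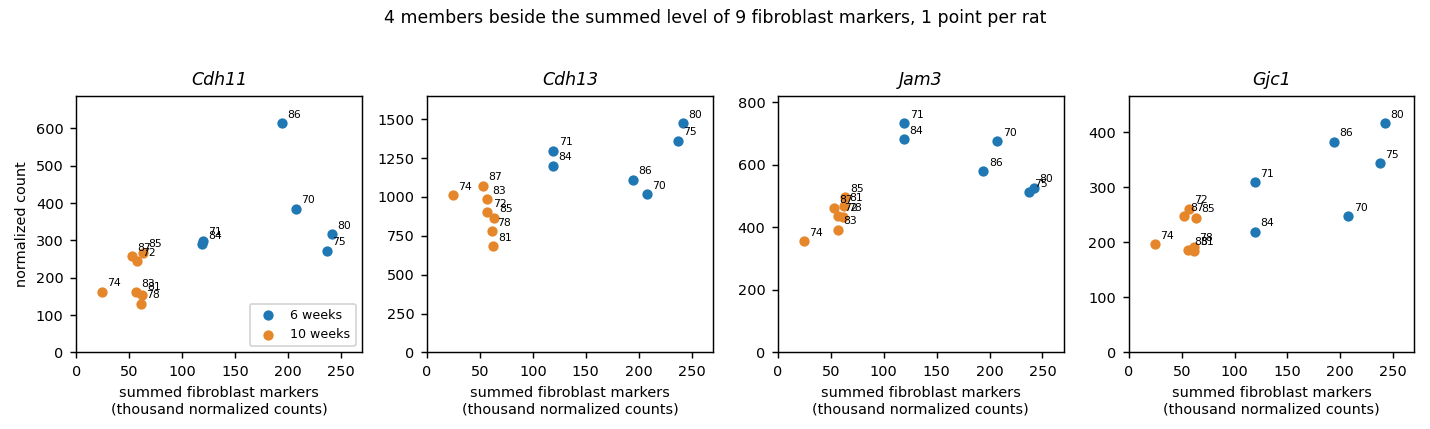
Normalized counts of Cdh11, Cdh13, Jam3 and Gjc1 in each rat against the summed level of 9 fibroblast markers (horizontal axis) (blue 6 weeks, orange 10 weeks, labels are rat numbers). All 6 younger rats lie to the right of all 7 older ones, and Cdh11 is highest in rat 86 (613) and not in the rats with the largest sums, 80 and 75.

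*Cdh16*, a cadherin best known from kidney tubules, was at low counts in these cells, from 1 to 10 normalized counts in the younger rats (median 5) and from 8 to 68 in the older (median 11). Rats 78 and 81, at 68 and 28, stood above all others, and rats 75 and 80 within WOS overlapped the older range. The log2 fold change of -1.60 ± 0.50 (limma adjusted p = 0.0469) stayed DE in only 2 of the 13 fits that left out 1 rat, those without rat 75 or 80, and reached 0.107 without rat 70. The other 6 cadherins were not DE: *Cdh2*, the cadherin of nerve and mesenchymal cells, *Cdh6*, a cadherin of kidney, *Cdh17*, of intestine, *Cdh19*, of Schwann cells, *Cdh23*, of hair cells, and *Cdh24*. Their log2 fold changes ran from -0.26 for *Cdh19* to 1.36 for *Cdh17*, and *Cdh17*, *Cdh23* and *Cdh24* varied widely among rats of the same age. Among them *Cdh24* came closest (1.04 ± 0.36; limma adjusted p = 0.069), with older rats spread from 9 to 47.

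Of the zonula occludens scaffolds, which link claudins and occludin to actin, *Tjp1* and *Tjp3* overlapped between the ages. *Tjp1* lay between 3729 and 5559 normalized counts within WOS and between 4538 and 6435 outside, and *Tjp3* between 54 and 113 and between 43 and 160, and neither was DE (limma adjusted p = 0.549 and 0.633).

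*Jam3* (ENSRNOG00000009149), a junctional adhesion molecule of vessels and epithelia, ranged from 513 to 732 normalized counts in the younger rats (median 628) and from 355 to 496 in the older (median 436). The ages did not overlap, with rat 75 at the bottom of the younger range, and the log2 fold change was 0.50 ± 0.12 (limma adjusted p = 0.0143), DE in all 13 fits that left out 1 rat. *F11r*, which encodes the epithelial member of the family, ran from 1766 to 2769 in the younger rats and from 2294 to 2804 in the older and was not DE (-0.12 ± 0.12; limma adjusted p = 0.525), and *Jam2* was not DE at 0.15 ± 0.19. *Ocln*, occludin, ran from 1260 to 2250 and from 1471 to 2240, with a log2 fold change of -0.13 ± 0.16 that was not DE (limma adjusted p = 0.609).

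Among 16 claudins, 2 were DE (12.5%, beside 16.1% of all genes), both higher within WOS (8.71% of all genes). Neither is one of the claudins usual in mammary luminal cells. *Cldn5* (ENSRNOG00000045811), the claudin of endothelial cells, ran from 85 to 215 normalized counts in the younger rats (median 144) and from 46 to 115 in the older (median 83). Rats 84 and 86 within WOS lay inside the older range, and the log2 fold change of 0.88 ± 0.26 (limma adjusted p = 0.0368) held in 5 of the 13 fits that left out 1 rat, those without rat 81, 83, 84, 85 or 86 (at most 0.074, without rat 70), and missed the threshold in the larger set (0.81; limma adjusted p = 0.061). The endothelial markers beside it had 0 DE genes of 9, beside 16.1% of all genes, and 6 of the 9 log2 fold changes were above 0. The part of endothelial cells in the *Cldn5* values was not tested. *Cldn10*, a claudin that forms ion channels in kidney, ran from 6 to 35 (median 14.5) and from 2 to 20 (median 5), with rat 85 at 20 above the other older rats. Its log2 fold change of 1.49 ± 0.45 (limma adjusted p = 0.0406) held in only 2 of those 13 fits, without rat 80 or 85, and reached 0.095 without rat 70.

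*Cldn3*, *Cldn4* and *Cldn7*, claudins of glandular epithelia, overlapped fully or nearly so between the ages and none was DE. *Cldn4* ran from 7680 to 17881 normalized counts in the younger rats and from 10219 to 20614 in the older, with a log2 fold change of -0.15 ± 0.22 (limma adjusted p = 0.663). *Cldn7* ran from 753 to 1496 and from 997 to 1579 (-0.06 ± 0.18; limma adjusted p = 0.855), and *Cldn3* from 321 to 1560 and from 285 to 1348 (0.40 ± 0.44; limma adjusted p = 0.563). Rat 86 had the lowest *Cldn4* and *Cldn7* of all, and rats 78, 81 and 83 were among the highest of the older rats for *Cldn3*, at 1004, 1311 and 1348, where the other 4 older rats lay between 285 and 687. *Cldn1*, which carries the barrier of skin, ran from 85 to 255 in the younger rats and from 136 to 368 in the older, with rat 74 highest and rats 84, 86 and 70 lowest, and was not DE at -0.81 ± 0.30 (limma adjusted p = 0.0845). *Cldn9*, at 8 to 17 and 0 to 9 normalized counts, missed the threshold (1.44 ± 0.47; limma adjusted p = 0.0538), which it passed without rat 81 (0.0259) or rat 83 (0.0435). The other 9 claudins had log2 fold changes from -0.89 for *Cldn22* to 0.68 for *Cldn2*, none DE. *Cldn22* was listed at 0 in rat 80 and *Cldn19* in rat 78.

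*Dsp* (ENSRNOG00000013928), desmoplakin, which ties desmosomes to keratin filaments, was higher within WOS. It ran from 6781 to 9722 normalized counts in the younger rats (median 7637.5) and from 3525 to 7332 in the older (median 5132). Rats 70 and 86 within WOS lay inside the older range, and rats 78 and 81 outside WOS were lowest, at 3525 and 3574. The log2 fold change was 0.67 ± 0.18 (limma adjusted p = 0.0241), not DE without rat 71 (0.0525) or without rat 84 (0.0579), and 0.53 in the larger set of rats (limma adjusted p = 0.0692).

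The other desmosomal genes were not DE. *Jup*, plakoglobin, ran from 1780 to 4339 in the younger rats and from 3041 to 6337 in the older (-0.54 ± 0.24; limma adjusted p = 0.134), and among the older rats it parted the smaller set, at 5543 to 6337 in rats 78, 81 and 83, from the rest, at 3041 to 3929. *Dsg2*, desmoglein of simple epithelia, ran from 944 to 1270 and from 1198 to 1655 (-0.34 ± 0.12; limma adjusted p = 0.0629). *Pkp4*, a plakophilin-related protein of adherens junctions, came nearest to the threshold (-0.30 ± 0.10; limma adjusted p = 0.0524) and passed it without rat 78 (0.0417), 80 (0.0457) or 81 (0.0442), and *Pkp1*, *Pkp2* and *Pkp3* had log2 fold changes of -0.35, -0.37 and 0.11. *Dsc2*, *Dsc3* and *Dsg3*, desmosomal cadherins of which *Dsc3* and *Dsg3* mark basal and stratified epithelium, had values of 0.40, 0.14 and 0.28. Rat 74 had the highest *Dsc3* (566) and *Dsg3* (406) of all rats, and of the 2 keratinocyte markers in the table (of 11 listed) *Krt10*, a keratin of skin, was at 1012 in that rat, against 0 to 28 in the others, while *Tgm1* was at 139, within the 95 to 183 of the others. The part of skin cells in these values was not tested.

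With all rats, 0 of the 6 catenin entries passed limma's adjusted threshold, and 1 (*Ctnnd2*) had an unadjusted p under 0.05. *Ctnnb1*, beta-catenin, which links cadherins to alpha-catenin and also carries the Wnt signal, ran from 5145 to 7322 in the younger rats and from 5218 to 7462 in the older, with a log2 fold change of 0.02 ± 0.11 (limma adjusted p = 0.916). *Ctnna1* and *Ctnnd1*, the alpha- and p120-catenin of epithelia, were at -0.19 and -0.12. *Ctnnd2*, a catenin of neurons, was at 0.53 ± 0.24, and the 2 entries of *Ctnna3* were at -0.73 and -0.46 with counts of 60 or less, the first of them DE without rat 81 (-1.14; limma adjusted p = 0.00974) and in the larger set of rats (-1.36; 0.0108).

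*Epcam* (ENSRNOG00000015667), a marker of epithelial cells that loosely ties them together, ran from 8992 to 12181 normalized counts in the younger rats (median 10988.5) and from 12058 to 17079 in the older (median 14241). Rat 71 alone of the younger rats lay above the lowest older rat. The log2 fold change of -0.39 ± 0.12 (limma adjusted p = 0.0454) was lost in each of the 13 fits that left out 1 rat, 0 of them keeping it DE (limma adjusted p from 0.0505 to 0.0808), and in the larger set (-0.24; limma adjusted p = 0.217).

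Of the genes that surround junctions, 55 of 64 listed scaffold and polarity genes were in the table, and 9 of these were DE (16.4%, against 16.1% of all genes). Of the 9, 8 were higher outside WOS, where 7.39% of all genes were DE in that direction. Their median log2 fold change was -0.11. Higher outside WOS were *Pard6b* (-0.75), a member of the Par polarity complex, *Pard3b* (-0.66), a relative of its Par3 subunit, *Patj* (-0.44) and *Mpp5* (-0.52) of the Crumbs complex, *Afdn* (-0.67), which links nectins to actin, *Magi3* (-0.46), a tight junction scaffold, and *Rock2* (-0.52), a kinase of actomyosin. *Magi2* (-0.43), a further scaffold, was also DE and was named after its values were seen. *Magi3*, *Pard6b* and *Patj*, 3 of the 55, had no overlap between the ages, with every rat within WOS below. Of all genes 2.78% had no overlap in that direction. *Patj* and *Rock2* lost their call when rat 70, 72, 74, 84 or 87 was left out (at most 0.0681 and 0.0656), and *Patj* also without rat 78. For *Pard6b* the younger rats lay between 741 and 1354 and the older ones between 1621 and 2712 (limma adjusted p = 0.0128).

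Cadherins outside the family rule, such as protocadherins and Fat and Celsr genes, were in the table for 27 of 34 symbols, and 6 were DE (22.2%, beside 16.1% of all genes), 5 of them higher within WOS (8.71% of all genes). *Pcdh10* lay at 41 to 91 normalized counts within WOS and 17 to 48 outside (1.31 ± 0.24; limma adjusted p = 0.00339). *Pcdh12*, a protocadherin of endothelial cells, lay at 96 to 196 within WOS and 37 to 88 outside with no overlap (0.93 ± 0.22), and *Celsr3*, a planar polarity cadherin, at 12 to 35 and 3 to 12 (1.55 ± 0.31). *Pcdh18* and *Fat4* were also higher within WOS, at 0.62 and 0.49, and *Cdhr1* was higher outside, at -0.70. Leaving out rat 71, 74 or 78 gave 3 DE genes, beside 12%, 10.8% and 12.7% of all genes, and the calls of *Pcdh18*, *Fat4* and *Cdhr1* were lost in 8, 10 and 7 of the 13 fits that left out 1 rat (at most 0.0723, 0.0815 and 0.0683). In the list of transcription regulators of epithelial and mesenchymal states, 20 of 21 were in the table and 1 was DE (5%, beside 16.1% of all genes), *Ovol1*, an epithelial repressor, at -0.54 ± 0.12.

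**Figure D5:**
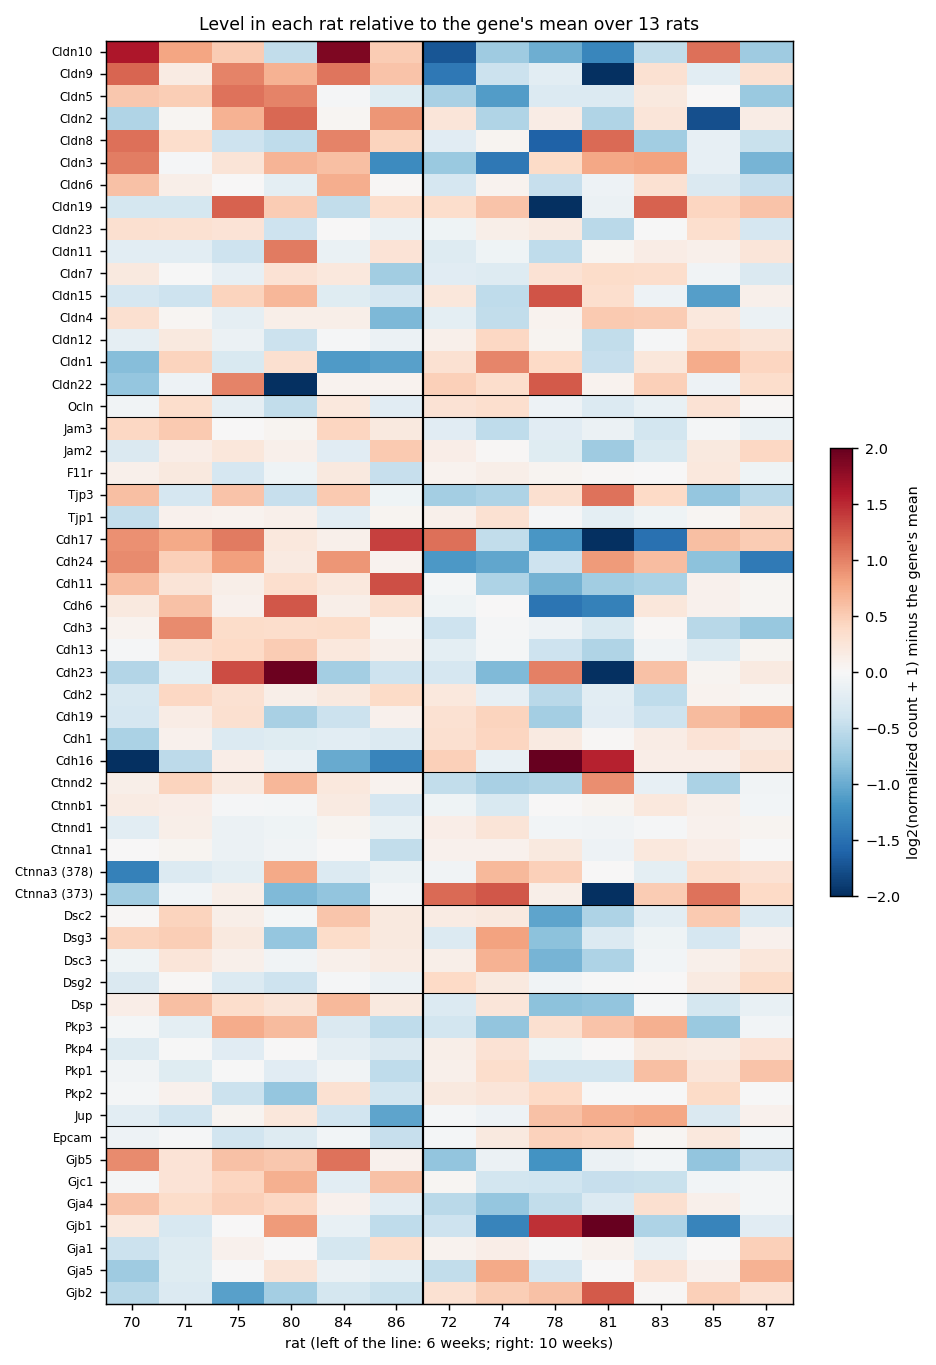
Level of 57 of the 61 entries in each rat as log2(normalized count + 1) minus the gene's mean over 13 rats, grouped by role, with the colour scale ending at -2 and 2; rats left of the line are at 6 weeks and those right of it at 10 weeks. Gjb5 and Jam3 are mostly red at 6 weeks and blue at 10 weeks, while Cdh23, Cldn3, Gjb1 and Jup also vary among rats of the same age.

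In the map of levels by rat, variation within an age was as plain as the difference between ages for several genes, among them *Gjb1*, *Cdh23*, *Cldn3* and *Jup*. Within the larger set of rats alone, 21 entries were DE, with 10 up within WOS and 11 up outside WOS, beside 13.6% and 9.92% of all genes in that set (23.5% in either direction). The sets were chosen by the variation within ages in these same values, and p-values within a set were not corrected for that choice. Of the 17 entries DE over all rats, 10 were among them (58.8% of the 17 and 47.6% of the 21), and the fits share rats. Entries DE there and not over all rats numbered 11, among them *Cldn8* (0.92), *Cdh24* (1.70), *Ctnnd2* (0.68) and *Tjp3* (0.83) higher within WOS and *Cldn1* (-1.27), *Dsg2* (-0.39), *Pkp1* (-0.54) and *Pkp4* (-0.39) higher outside. The smaller set of 5 rats gave 0 DE entries in limma, where 0 of all 14770 genes tested were DE. At an unadjusted p under 0.05 that set gave 16 entries (26.2%, beside 13.4% of all genes in that set). Library size scaling gave 12 entries higher within WOS and 3 higher outside, beside 8.77% and 5.22% of all genes (14% in either direction). Sample quality weights gave 17 and 9, beside 20.3% and 17.8% of all genes (38.2%).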

How the data were processed

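RNA-seq libraries of mammary epithelial cells, 1 per rat, came from 6 rats at 6 weeks and 7 at 10 weeks of age. The authors estimated counts with RSEM 1.2.22 (rn5, EdgeR and DESeq2 are also named in the submitters' processing notes), scaled each library and deposited them rounded; the unit is taken as a score, called normalized counts here. The annotation is not given in the sources used here. The authors' deposited comparison of the ages (log2 fold changes and abundances, a likelihood ratio score, p-values and their −log10) was not used. Whole numbers from 1 to 30 were skipped in 7 rats, so rats differ in precision where counts are low, and no counting interval is given.

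The ages were compared by limma 3.58.1 (R 4.3.3), applied to log2(normalized count + 1) of the 14790 genes whose mean was 1 or more, without covariates, using two-sided p-values, Benjamini-Hochberg adjustment over all genes and a threshold of 0.05. Ratios of genes were compared with exact permutation tests in Python 3.11.15 (numpy 2.4.6, pandas 2.3.3, scipy 1.17.1), and figures were drawn with matplotlib 3.10.9. The p-values measure the spread between rats. The genes and lists were chosen with earlier results of these data known. Named are all DE entries, 15 fixed junction genes, and up to 8 DE genes from each of 3 further lists; other entries, given in passing, were named after their values were seen, and some genes are counted but not reported here. Alternatives were scaling by upper quartile, by library size or by median ratio, 0.1 as the pseudocount, no minimum or one of 10 in all rats, limma-trend, sample quality weights, each rat left out in turn, and each set of rats alone. Promoter windows and gene order came from RefSeq (GRCr8).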

Additional observations from a re-analysis of the deposited data

Results flagged for a closer look

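In 6 of 46 groups of rats tested over 23 named entries, 1 rat lay far from the others of its age. The cut-off flags about 1 group in 20 where values follow a normal distribution. That was not checked for these untransformed counts, so the number expected by chance is not known. Outside WOS, *Gjb2* in rat 81 was at 5274 normalized counts, with the other older rats between 2298 and 3393. *Gja1* in rat 87 was at 3559 (the others 2319 to 2814), *Cdh16* in rat 78 at 68 (8 to 28) and *Cldn10* in rat 85 at 20 (2 to 6). Within WOS, *Cdh11* in rat 86 was at 613, with the others between 272 and 385, and *Cdh3* in rat 71 at 382, with the others between 205 and 256. Without the rat in question *Cdh11*, *Cdh3*, *Gjb2* and *Cldn10* stayed DE and *Cdh16* did not (limma adjusted p = 0.0585).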

How the results depend on the processing

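All 17 DE entries kept their sign under every alternative that could be computed. Of the alternatives for results that answer a comparison 142 were classed as the same, 23 as weaker and 5 as stronger. A count near the main one was classed as the same, such as 17 entries higher within WOS with sample quality weights against 12. Counts were classed without regard to the share of all genes. Entries higher within WOS numbered 12, beside 8.71% of all genes, and 0 in the smaller set of rats, where 0 of 14770 genes were DE. Entries higher outside WOS numbered 5 (beside 7.39% of all genes), 3 with library size scaling (5.22%), 9 with sample quality weights (17.8%), 11 in the larger set (9.92%) and 0 in the smaller. In the 13 fits that left out 1 rat 9.54% to 18.1% of all genes were DE. Leaving out 1 rat gave 7 to 13 and 3 to 6 entries, a median log2 fold change of 0.0686 to 0.157, 6 to 12 scaffold and polarity genes, 3 to 5 further cadherins, 1 regulator, and ratio differences of -1.2 to -1.07 (*Cdh1* to *Cdh3*) and -0.964 to -0.723 (*Gjb2* to *Gja1*). DE scaffold and polarity genes numbered 9 (beside 16.1% of all genes), 21 with weights (38.2%) and 0 in the smaller set. Further cadherins numbered 6, 3 in the larger set (beside 23.5% of all genes) and 0 in the smaller. Regulators numbered 1, 2 with weights, 2 in the larger set and 0 in the smaller. The ratio of *Cdh1* to *Cdh3* differed by -1.34 in the larger set and -0.861 in the smaller, and that of *Gjb2* to *Gja1* by -0.455 and -1.57, none with an adjusted p under 0.05 in its exact permutation test. Sign changes, none in a DE gene, were *Gja1* 0.0764, *Tjp1* 0.185, *Cldn3* -0.186 and *Ctnnb1* -0.123 in the smaller set; *Cldn4* 0.0762, *F11r* 0.0208 and *Cldn7* 0.155 with weights; *Cldn4* 0.0443 and *Cldn7* 0.131 in the larger set; and, leaving out 1 rat, *Cldn4* (-0.246 to 0.0117) and *Cldn7* (-0.121 to 0.0767), both above 0 without rat 86, and *Ctnnb1* (-0.0287 to 0.0897), below 0 without rats 70, 71, 84 or 74. *Epcam*, *Gjc1* and *Cdh16* also lost their call under a scaling, weighting or pseudocount alternative. The causes were not tested. No paired analysis was possible because the ages share no replicate numbers.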
